A study of Mus musculus with 22 samples.

Results

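The complement and Fc receptor genes C1qa, C1qb, C1qc, C3, C4b, C3ar1, Fcgr3, Fcer1g and Serping1 were examined for hnRNP A1 binding in mouse spinal cord. These 9 genes were chosen by name, and a footprint was counted for a gene when it overlapped the gene's annotated span on GRCm38 by at least 1 nt. In all, 326 of the 136207 footprints of 10 mice lay in these 9 genes, out of 13948 genes with a footprint in at least 1 mouse. The footprints come from CLIPseq, in which UV light links a protein to the RNA it touches, the protein is immunoprecipitated, and the RNA that stays attached is sequenced. All mice were female wild-type C57BL/6 animals, each giving 1 spinal cord and 1 immunoprecipitation. The 3 naïve mice were not immunized. The 7 others had experimental autoimmune encephalomyelitis (EAE), a model of multiple sclerosis induced with the MOG(35-55) peptide in complete Freund's adjuvant together with pertussis toxin, and were taken 15 days after the first clinical signs. The protocol label gives an age of 12 weeks at immunization and the design text one of 8 weeks. Mild EAE (mice 3, 4 and 7) had clinical scores of 1.0 to 1.5 and severe EAE (mice 1, 2, 5 and 6) scores of 2.5 to 3.0, the cut being that of the study's methods. Mice are named here by the number in their label, so a naïve mouse and an EAE mouse with the same number are different animals.

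Complement is a cascade of plasma and tissue proteins that tags particles, synapses and cells for removal. C1q, built from the products of C1qa, C1qb and C1qc, starts the classical pathway, C4 and C3 are cleaved downstream of it and their fragments attach to targets, and the C1 inhibitor encoded by Serping1 restrains the first proteases. Fc receptors bind antibodies, and some of them signal through the common gamma chain encoded by Fcer1g. In the central nervous system C1q is made mainly by microglia, and C3 and C4 are made by glia, astrocytes among them.

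The lists differed in length, which limits what an absent footprint shows. The naïve lists held 17119 to 17494 footprints, the mild EAE lists 9751 to 24433, and those of severe EAE mice 2, 6, 1 and 5 held 209, 673, 2670 and 31870. The files give positions without read counts, so the depth behind a footprint is unknown, and amounts are given here as covered nucleotides per gene. Because lists differed in length, the value is also given as a share, per 100000 covered nucleotides of that mouse's whole list. A listed footprint depends on both the RNA present and its binding, so more RNA of a gene, more cells that make it, more RNA per cell and more binding per RNA cannot be told apart.

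Footprints in the 9 genes took up a larger share of the list in 6 of 7 EAE mice than in any naïve mouse. Naïve mice 1, 2 and 3 had 44.9, 29.0 and 56.0 nucleotides in these genes per 100000 covered nucleotides. Mild EAE mice 3, 4 and 7 had 507, 346 and 216, which is 8.23 times the naïve mean in the mean of the group (356 ± 146 against 43.3 ± 13.6, SD, n = 3 each). Severe EAE mice 1, 5 and 6 had 537, 233 and 672, so that even lists of 673 and 2670 footprints held a share above those of naïve mice. The share of mouse 6 rests on 7 footprints and 511 nt, fewer nucleotides than in any naïve mouse (595 to 1224 nt). Mouse 1 covered 1772 nt in 20 footprints. Severe EAE mouse 2 had none among its 209 footprints. C3 and C4b supplied most of this coverage in every mouse that had any. The members were chosen with earlier results of these data known, so these shares are a description.

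**Figure D1:**
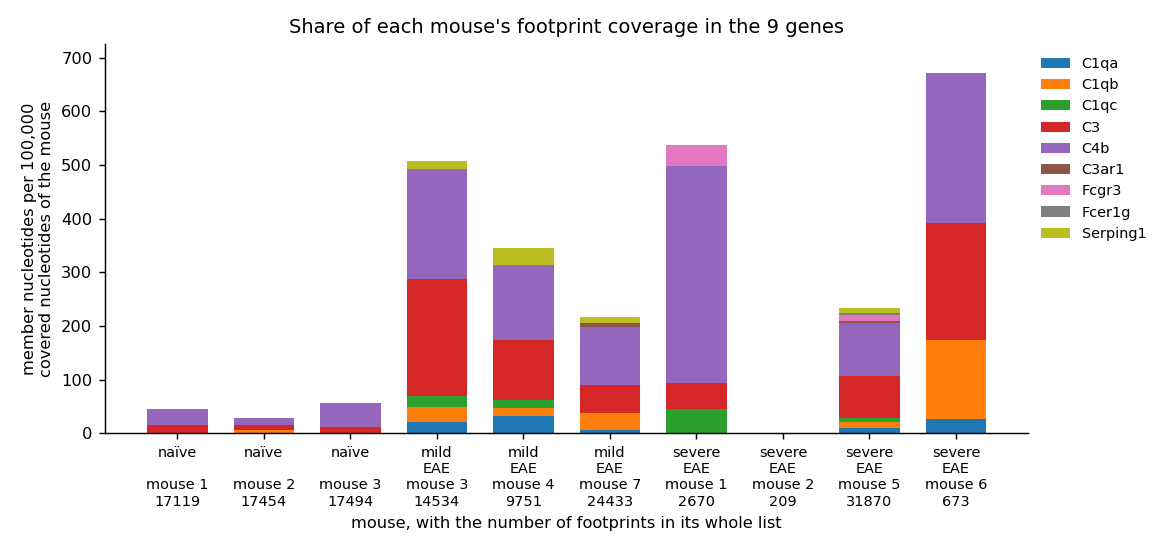
Nucleotides covered by footprints in the 9 genes per 100000 covered nucleotides of the mouse (y axis), for each of the 10 mice (x axis, with the length of its list), stacked by gene. The 3 naïve mice reach 29.0 to 56.0 and 6 of the 7 EAE mice reach 216 to 672, while severe EAE mouse 2 has none.

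By gene, 3 of the 9 had a footprint in any naïve mouse (C1qb, C3 and C4b), 7 in mild EAE and all 9 in severe EAE. With footprints in at least 2 mice of the group required, naïve mice had 2 of the 9 genes and the mild and severe EAE groups 6 each, whereas over all 13948 genes the shares were 34.1%, 33.3% and 11.1%. The severe EAE count rests on mouse 5, since it was 2 without that mouse and 4 without mouse 1 or mouse 6. The mild EAE lists lay on both sides of the naïve lists in length, mouse 4 having the shortest and mouse 7 the longest of the 6. Of the 6 members with a footprint in at least 2 of these 6 mice, 5 (C1qa, C1qb, C3, C4b and Serping1) had more covered nucleotides in every mild EAE mouse than in every naïve mouse, beside 4.53% of the 7799 genes tested. None showed the reverse, beside 4.54% of genes. For 3 members (C1qa, C1qc and Serping1) there were footprints in at least 2 mild EAE mice and in no naïve mouse, beside 8.96% of genes, and none had the opposite pattern, beside 8.35%. These 3 entered the comparison through mild EAE mice alone, so their direction was set by the rule for entry. C1qb, footprinted in 1 naïve mouse, could not have entered without mild EAE mice either. The counts of members are therefore a description. The other 3 members (C3ar1, Fcgr3 and Fcer1g) had too few footprints in these 6 mice to be tested. On the scale of shares of each mouse's coverage the same count of 5 members stood beside 7.00% of genes.

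No member passed a correction over all genes. In the exact two-sided permutation test, 3 mice against 3 cannot go below 0.100, which is the value of each of the 5 genes, and after Benjamini-Hochberg adjustment over 7799 genes it was 0.914. For all 7 EAE mice against the naïve mice the smallest exact p of a member was that of C1qa (0.117, adjusted 0.880), and for severe EAE alone the values ran from 0.429 to 1.00 (adjusted 1.00 for each). No gene of the genome passed an adjusted p of 0.05 in any of the 3 comparisons, while 416 of 9195 genes had an unadjusted exact p under 0.05 for EAE, 0 of 7799 for mild EAE and 232 of 7091 for severe EAE.

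**Figure D2:**
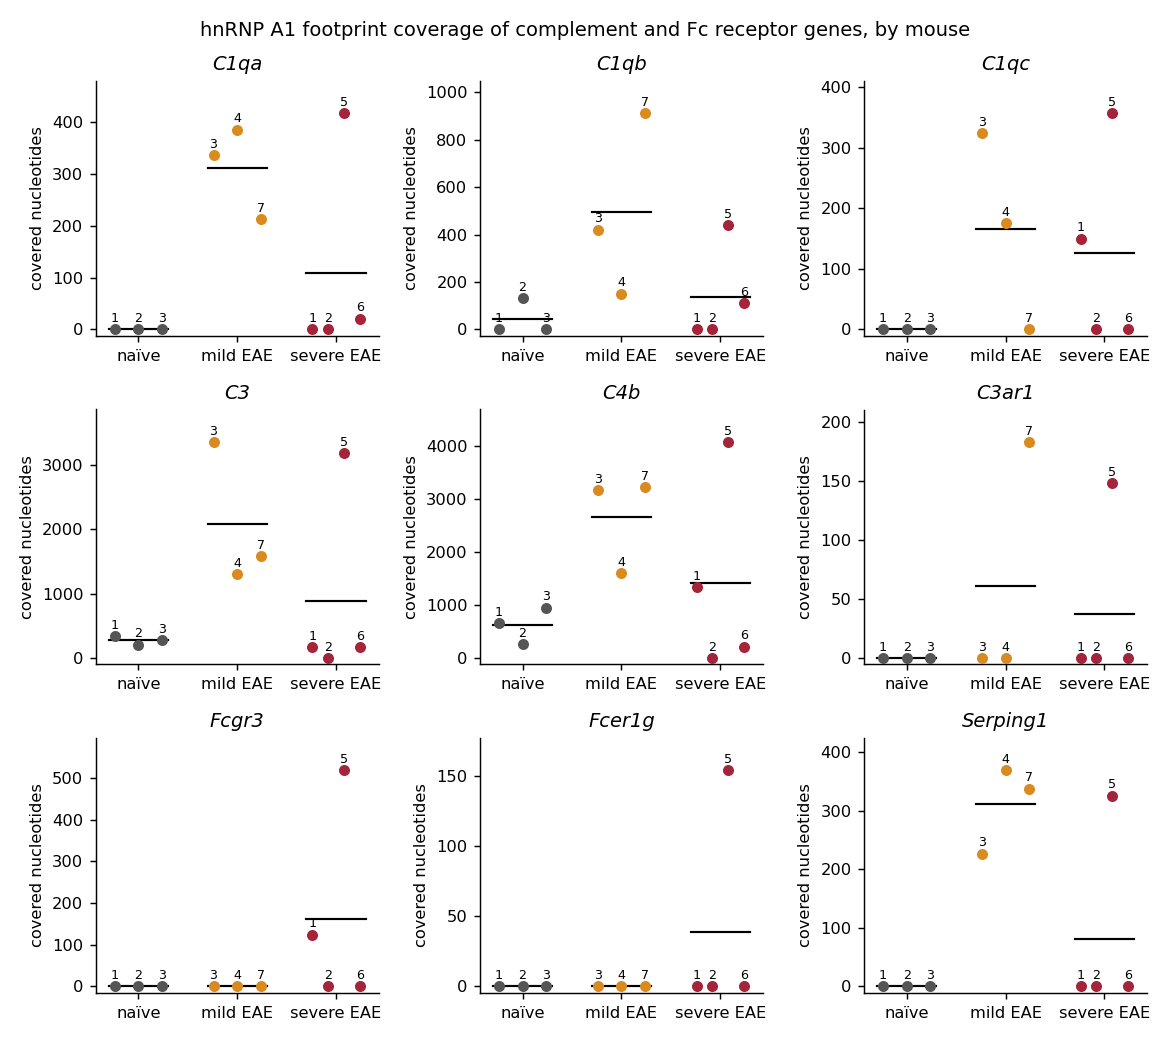
Covered nucleotides (y axis, linear, a scale for each gene) of the 9 genes in naïve, mild EAE and severe EAE mice. Each point is 1 mouse with its number, and lines are group means. In C1qa, C1qb, C3, C4b and Serping1 all 3 mild EAE mice lie above all 3 naïve mice, and severe EAE mouse 5 is the highest of its group in every gene.

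The 3 C1q genes lie side by side on the minus strand of chromosome 4. Naïve mice had 1 footprint in them, in mouse 2, and EAE mice had 36, spread over 6 of 7 animals. C1qa (chr4:136895917-136898803), which encodes the A chain, was at 0 in all naïve mice and covered 337, 386 and 213 nt in mild EAE mice 3, 4 and 7. In severe EAE it covered 417 nt in mouse 5, 21 nt in mouse 6 and none in mice 1 and 2. The mild EAE mice were thus separated from the naïve mice (312 ± 89.2 nt against 0), and the severe EAE mice overlapped them. As shares per 100000 covered nucleotides, C1qa had 21.8, 33.4 and 7.13 in the mild EAE mice, 10.1 in severe EAE mouse 5 and 27.6 in mouse 6.

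C1qb (chr4:136880129-136886187), which encodes the B chain, covered 131 nt in naïve mouse 2 and none in naïve mice 1 and 3. Mild EAE mice 3, 4 and 7 had 421, 151 and 910 nt. Severe EAE mice 5 and 6 had 439 and 112 nt and mice 1 and 2 none. Mild EAE mouse 4 was close to naïve mouse 2, so the groups are only narrowly apart for this gene. Per 100000 covered nucleotides naïve mouse 2 had 6.37 and the mild EAE mice 27.2, 13.1 and 30.5. Severe EAE mice 5 and 6 had shares of 10.6 and 147, so mouse 6 lay below naïve mouse 2 in nucleotides and above it as a share.

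C1qc (chr4:136889804-136893065), which encodes the C chain, was at 0 in naïve mice, covered 324 and 176 nt in mild EAE mice 3 and 4, and was at 0 in mouse 7. The severe EAE mice with coverage were mouse 1 (150 nt) and mouse 5 (357 nt). It was the only C1q gene with a footprint in severe EAE mouse 1, and mild EAE mouse 7, which had the longest list of its group, overlapped the naïve mice. The shares per 100000 covered nucleotides were 20.9 and 15.2 in mild EAE mice 3 and 4, 45.4 in severe EAE mouse 1 and 8.62 in severe EAE mouse 5.

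Positions within the C1q genes were partly shared between animals. In C1qa the 121 nt covered in all 3 mild EAE mice lay in intron sequence (chr4:136898021-136898141) and were covered whole in severe EAE mouse 5 too. At 55.0% of covered nucleotides, C1qa had the largest intronic part of the 9 genes. A second stretch, 52 nt of the 5′ UTR in exon 1, was shared by mild EAE mice 3 and 7 and was overlapped in severe EAE mice 5 and 6. In C1qb the 85 nt covered in all 3 mild EAE mice (chr4:136880216-136880300) ran from the last 3 codons into the 3′ UTR, and severe EAE mouse 5 again covered them whole. C1qb footprints of mild EAE mice together covered 78.9% of the 1088 nt mRNA, against 12.0% in naïve mice. C1qc was mostly coding (82.8% of covered nucleotides). For each gene the coding stretch of at least 30 nt covered in the most mice, the longest where several tied, is printed below, 5′ to 3′ on the gene's strand with the letters of the genome, because they show where animals coincide in each C1q gene. Capitals mark TAG and AGGT, the DNA forms of UAG, a core of the sequence hnRNP A1 is known to bind, and of AGGU, which the study also examined.
C1qa: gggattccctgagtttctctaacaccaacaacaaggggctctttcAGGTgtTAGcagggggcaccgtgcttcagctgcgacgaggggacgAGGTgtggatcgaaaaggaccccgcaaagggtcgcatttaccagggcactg
C1qb: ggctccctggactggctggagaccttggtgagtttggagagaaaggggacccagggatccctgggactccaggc
C1qc: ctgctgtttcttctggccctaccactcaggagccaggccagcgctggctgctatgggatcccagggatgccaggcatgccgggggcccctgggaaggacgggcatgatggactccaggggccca
The C1qa stretch (chr4:136896201-136896341, exon 3, codons 184 to 231) was covered in mild EAE mice 3 and 4. The C1qb stretch (chr4:136880796-136880869, exon 3, codons 61 to 85) was covered in mild EAE mouse 7 and severe EAE mice 5 and 6, and the C1qc stretch (chr4:136892391-136892514, exon 2, codons 17 to 58) in mild EAE mouse 3 and severe EAE mice 1 and 5. These 2 stretches of C1qb and C1qc hold neither motif, and the C1qa stretch holds 1 TAG and 2 AGGT. As background, windows of the same lengths centred on the 112327 footprints that overlap a single gene hold TAG in 68.5%, 45.3% and 63.6% of cases, and AGGT in 52.6% and 48.1% for the lengths of the C1qa and C1qc stretches. A motif match is a description of the letters and not a mapped contact.

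**Figure D3:**
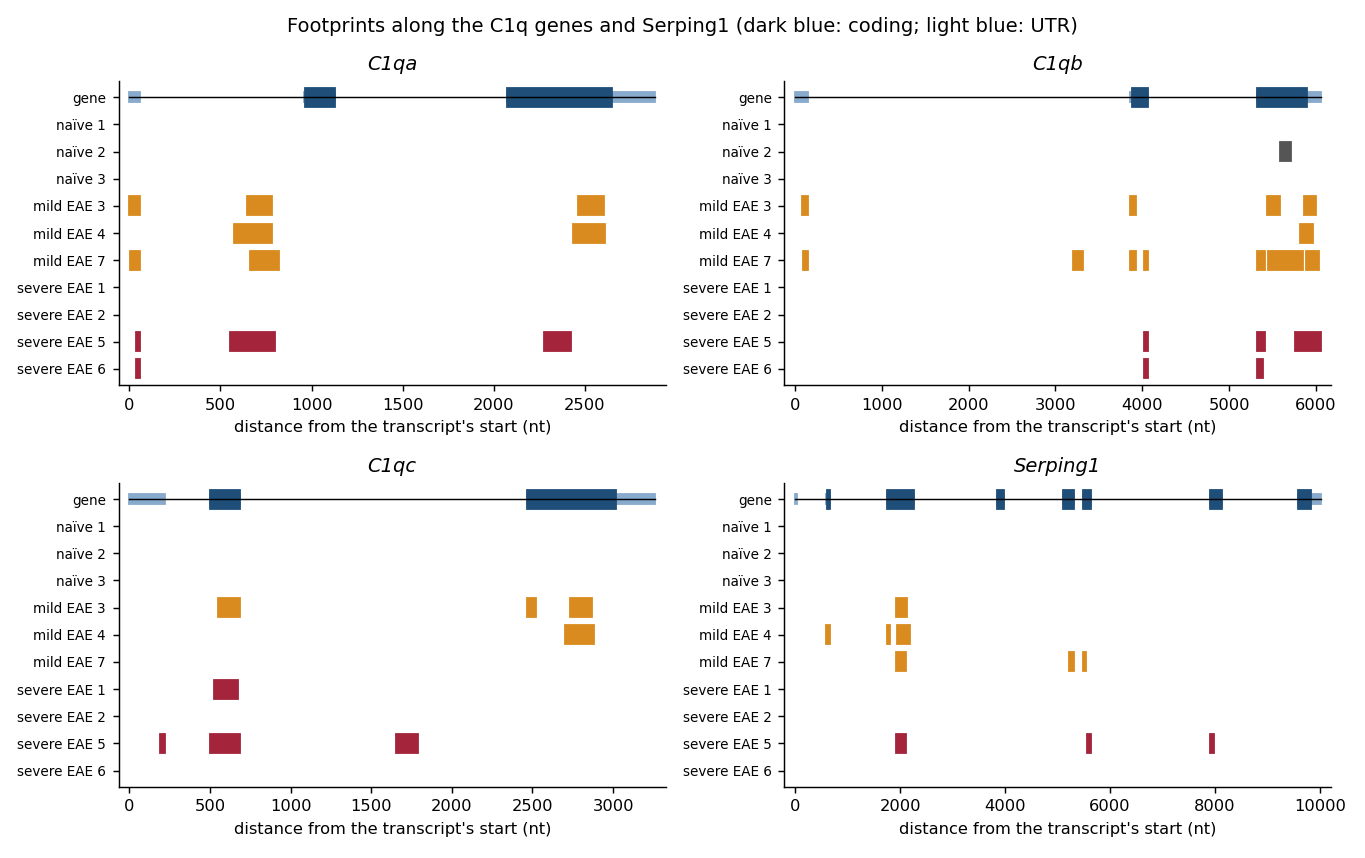
Footprints of each of the 10 mice (rows) along C1qa, C1qb, C1qc and Serping1, against distance from the start of the reference transcript in nt (x axis). The top row draws the gene, dark blue for coding and light blue for untranslated exons. Mild EAE mice and severe EAE mouse 5 coincide in the first part of C1qa, at the end of C1qb and in exon 3 of Serping1, where naïve rows are empty.

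C3 (chr17:57203970-57228136), the central component on which the complement pathways converge, was footprinted in all 3 naïve mice and in 6 of 7 EAE mice. Naïve mice 1, 2 and 3 had 343, 209 and 272 nt. The values of mild EAE mice 3, 4 and 7 were 3363, 1308 and 1591 nt, so that the lowest mild EAE mouse was well above the highest naïve mouse (2087 ± 1114 against 275 ± 67.0 nt, SD, n = 3 each). Severe EAE mice 1, 2, 5 and 6 had 163, 0, 3192 and 165 nt, which falls on both sides of the naïve values. Per 100000 covered nucleotides, however, the naïve values were 15.5, 10.2 and 12.4, while those of severe EAE mice 1, 5 and 6 were 49.4, 77.1 and 217, so that 6 of 7 EAE mice lay above all naïve mice on that scale.

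The C3 footprints followed the spliced mRNA. Of 110 footprints, all had their midpoint in coding sequence, 99.6% of their nucleotides were exonic, and 104 had an end at an annotated exon boundary. They therefore do not count separate binding sites, since 1 spliced contig gives a footprint in each exon it crosses. Joined along the mRNA, the 66 footprints of mild EAE mice formed 26 runs, the longest of 1247 nt in mouse 3, and the 9 of naïve mice formed 6 runs of at most 182 nt. Footprints reached 32, 16 and 17 of the 41 exons in mild EAE mice 3, 4 and 7, 30 in severe EAE mouse 5, and 4, 3 and 2 in naïve mice. Mild EAE mice covered 65.0%, 25.4% and 30.9% of the 5136 nt mRNA and naïve mice 6.68%, 4.01% and 5.26%.

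At least 2 mild EAE mice shared 22 stretches of C3, all coding, and 6 of these held positions covered in all 3. Severe EAE mouse 5 overlapped 19 of the 22, and naïve mice 2. The 2 stretches shared by naïve mice 1 and 2 (exons 11 and 12) were both met in mild EAE mouse 3. Exons 22 and 23 (chr17:57217266-57217332 and chr17:57217085-57217171, codons 933 to 984) were covered in all 3 mild EAE mice and overlapped by no other mouse, severe EAE mouse 5 included. The neighbouring exon 21 was common to the mild EAE mice and severe EAE mouse 5, and its shared stretch (chr17:57218459-57218615, codons 880 to 932) is shown as the longest of 8 coding stretches of C3 covered in 4 mice, the most for this gene.
C3: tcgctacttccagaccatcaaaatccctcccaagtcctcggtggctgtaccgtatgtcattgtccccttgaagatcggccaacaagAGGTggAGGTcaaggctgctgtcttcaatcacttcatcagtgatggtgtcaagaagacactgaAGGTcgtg
It holds 3 AGGT and no TAG, where 56.1% and 72.4% of windows of that length hold at least 1.

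C4b (chr17:34728380-34743882), whose product is cleaved by the C1 proteases, had the most footprints of the 9 genes, 156 in 9 of 10 mice. Naïve mice 1, 2 and 3 had 653, 255 and 952 nt. Mild EAE mice 3, 4 and 7 had 3174, 1607 and 3228 nt, all above the naïve mice (2670 ± 921 against 620 ± 350 nt, SD, n = 3 each). Severe EAE mice 1, 2, 5 and 6 had 1335, 0, 4086 and 213 nt. As shares per 100000 covered nucleotides, naïve mice had 29.4, 12.4 and 43.5, and the 6 EAE mice with C4b footprints had 98.7 to 404. Severe EAE mouse 1, with a list of 2670 footprints, had the highest share, and its nucleotide count alone was above all naïve mice.

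C4b coverage was also that of spliced exons, with 96.5% of nucleotides exonic and 145 of 156 footprints ending at an exon boundary. Footprints reached 30, 18 and 29 of the 41 exons in mild EAE mice 3, 4 and 7, 34 in severe EAE mouse 5, 15 in severe EAE mouse 1, and 8, 3 and 12 in naïve mice. Of 28 coding stretches shared by at least 2 mild EAE mice, 15 held positions covered in all 3, all 28 met severe EAE mouse 5, and 13 met a naïve mouse. C3 and C4b thus differed in this count, 2 of 22 against 13 of 28 stretches, though no test was made of it and naïve coverage of C4b was the larger. Stretches of exons 17 and 18 shared by naïve mice 1 and 3 were overlapped by no mild EAE mouse. Among coding stretches of at least 30 nt, 3 of C4b were covered in 6 mice, the most for any member, and lay in exons 13, 15 and 16. The longest is printed (exon 13, chr17:34739731-34739819, codons 514 to 543), which was covered in naïve mouse 1, all 3 mild EAE mice and severe EAE mice 1 and 5.
C4b: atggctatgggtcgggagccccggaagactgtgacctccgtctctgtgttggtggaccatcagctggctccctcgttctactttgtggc
It holds neither motif, where 51.6% of windows of that length hold TAG and 36.1% AGGT.

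C4a, a close copy of C4b on the same chromosome, limits the assignment of these footprints. The whole sequence of 33 of the 156 C4b footprints occurs in the C4a span as well, and 17 of 37 C4a footprints occur in C4b. With these 33 left out, C4b covered 505 ± 325 nt in naïve, 2230 ± 875 nt in mild EAE and 1315 ± 1728 nt in severe EAE mice (SD, n = 3, 3 and 4), and the lowest mild EAE mouse (1220 nt) stayed above the highest naïve mouse (831 nt), at the smallest p the exact permutation test allows (0.100). C4a itself covered 150, 115 and 260 nt in naïve mice and 742, 468 and 426 nt in mild EAE mice. No C1q footprint occurred in another C1q gene.

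**Figure D4:**
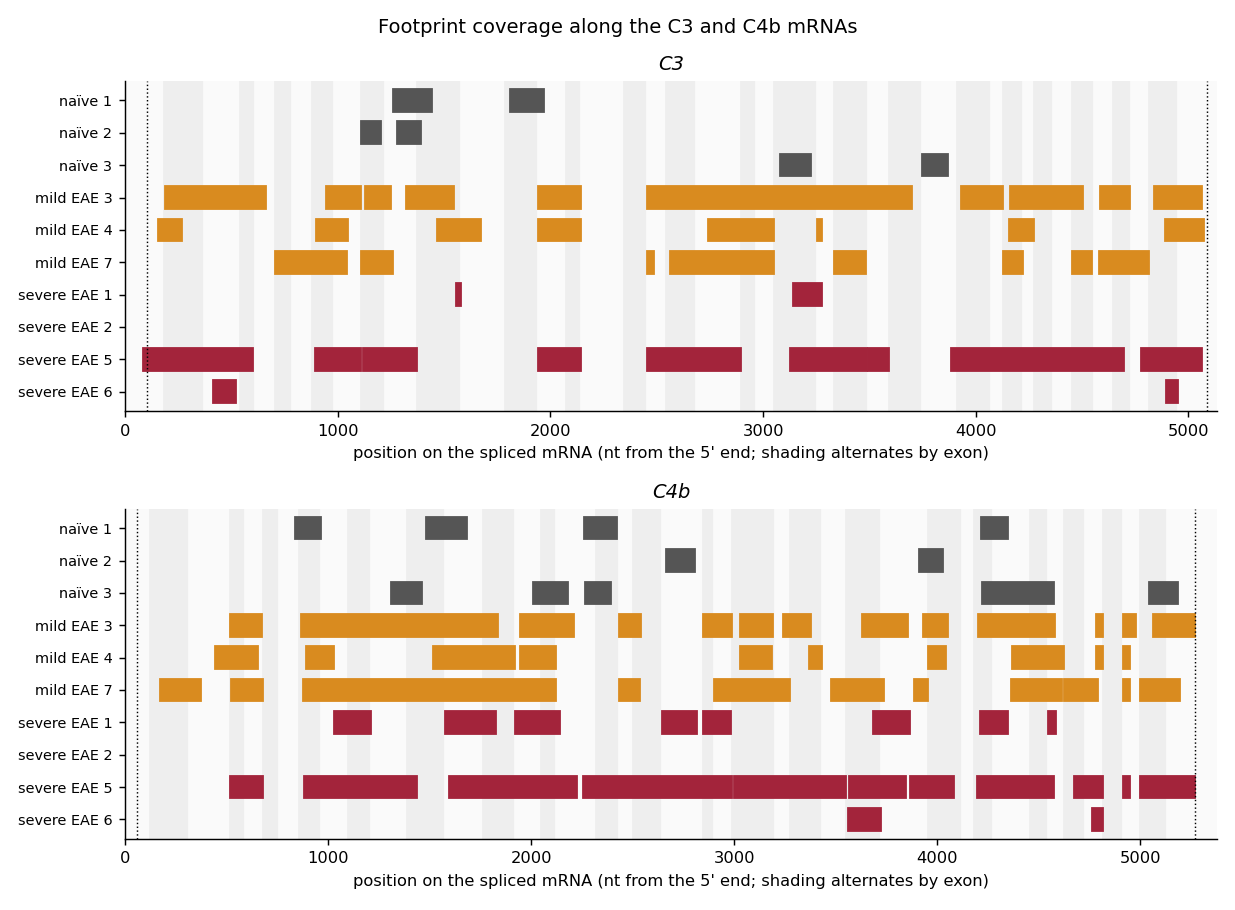
Positions covered by footprints on the spliced C3 and C4b mRNAs (x axis, nt from the 5′ end, shading alternating by exon, dotted lines at the ends of the coding sequence), with 1 row for each of the 10 mice. The longest runs reach 1247 nt in mild EAE mouse 3, 1245 nt in mild EAE mouse 7 and 814 nt in severe EAE mouse 5. Those of mild EAE mouse 4 reach 402 nt and those of naïve mice 351 nt, and severe EAE mouse 2 has none.

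Serping1 (chr2:84765387-84775444), the inhibitor of the C1 proteases, was at 0 in all 3 naïve mice and covered 227, 369 and 338 nt in mild EAE mice 3, 4 and 7 (311 ± 74.7 nt, SD, n = 3). In severe EAE only mouse 5 had footprints, covering 326 nt. The mild EAE mice and severe EAE mouse 5 lay close together and the other 6 mice were at 0. As shares per 100000 covered nucleotides these 4 mice had 14.7, 31.9, 11.3 and 7.87. All 10 footprints were exonic. A stretch of 216 nt in exon 3 (chr2:84773263-84773478, codons 73 to 145) was the only one shared by at least 2 mild EAE mice. Of it, 174 nt (chr2:84773284-84773457) were covered in all 3 mice, and 161 nt of these (chr2:84773297-84773457, codons 80 to 133), printed here, in severe EAE mouse 5 as well.
Serping1: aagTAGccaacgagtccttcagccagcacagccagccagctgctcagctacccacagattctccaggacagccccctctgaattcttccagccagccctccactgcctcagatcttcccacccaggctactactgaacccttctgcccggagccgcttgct
This stretch holds 1 TAG and no AGGT, where windows of its length hold TAG in 73.4% and AGGT in 57.0% of cases.

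The receptor genes had few footprints. C3ar1 (chr6:122847138-122856161), the receptor for the C3a fragment, had 1 footprint of 183 nt in mild EAE mouse 7 and 1 of 148 nt in severe EAE mouse 5, at different places: the first was coding and the second lay mainly in the 3′ UTR. Their shares were 6.13 and 3.57 per 100000 covered nucleotides. Fcgr3 (chr1:171051174-171064935), a low-affinity receptor for IgG, had 7 footprints over all 5 exons of its reference transcript in severe EAE mouse 5 (518 nt, 64.4% of the coding sequence) and 1 intronic footprint of 124 nt in severe EAE mouse 1, which are shares of 12.5 and 37.6. One of the 8, of 86 nt, occurs whole in the related gene Fcgr2b. Fcer1g (chr1:171229572-171234365) had 3 footprints of 21 to 108 nt, all in severe EAE mouse 5, a share of 3.72. Neither Fc receptor gene was footprinted in a naïve or mild EAE mouse. As severe EAE mouse 5 had the longest of all lists, these single-animal values do not separate severe from mild EAE.

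Across the 9 genes the footprints were more exonic than those of genes in general. Per mouse, 97.8 to 99.7% of member nucleotides were exonic for the naïve group, 93.2 to 95.4% for mild EAE and 92.0 to 100% for the 3 severe EAE mice that had any. In the same mice the values for all genes were 50.3 to 63.1%, 67.1 to 82.5% and 71.1 to 76.7%. In all 9 mice with member footprints the pooled value for the members was the higher one. It did not hold for each member: C1qa was 45.5% exonic in mild EAE and 43.8% in severe EAE, below the ranges of all genes. C1qc was 72.4% exonic in severe EAE, within the range of all genes. Of the 326 member footprints, C3 and C4b held 110 and 156. Of all member nucleotides 91.6% were coding, 2.00% lay in 3′ UTRs, 1.16% in 5′ UTRs and 5.21% in introns. An end at an exon boundary was found for 283 of the 326 member footprints (86.8%). The exonic share over all genes was higher in every mild EAE mouse than in every naïve mouse, a shift of the lists that moves with the group and whose part in the member values was not tested.

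**Figure D5:**
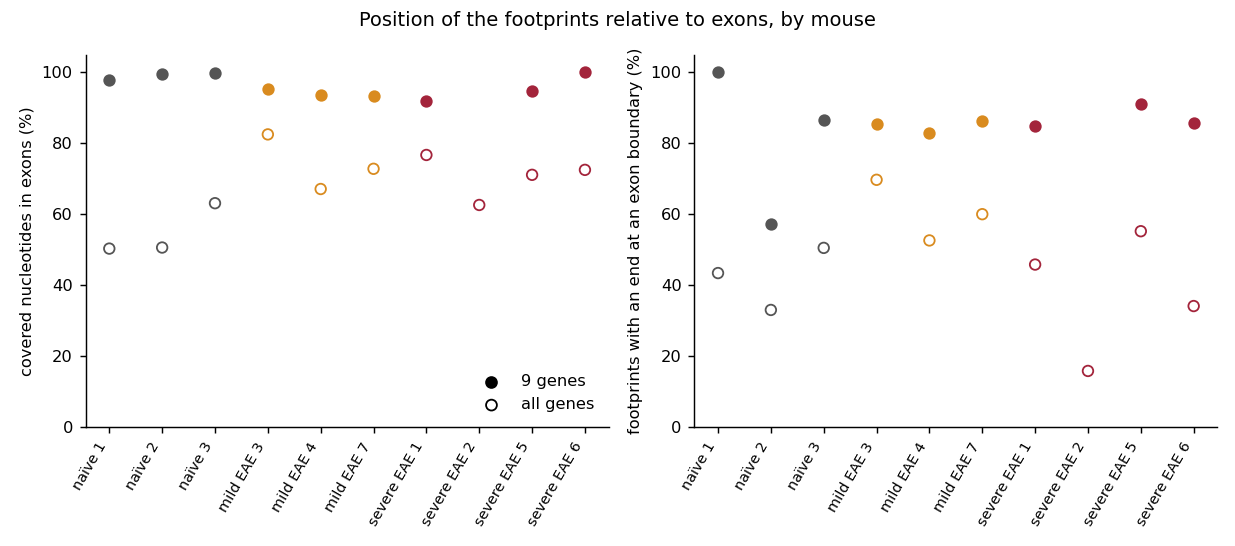
Share of covered nucleotides that lie in annotated exons (left, percent) and share of footprints with an end at an annotated exon boundary (right, percent) for each mouse. Filled points are the 9 genes and open points all genes, and severe EAE mouse 2 has no footprint in the 9 genes. Filled points lie above open points in all 9 mice that have both.

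At least 2 mice of a group shared stretches of the members, 6 of them among naïve mice, 60 among mild EAE mice and 24 among severe EAE mice. Of the 60 in mild EAE, 24 held positions covered in all 3 mice, 56 were coding, 52 met severe EAE mouse 5, 16 met a naïve mouse, and 14 met 1 of the severe EAE mice with short lists. All 24 stretches of severe EAE involved mouse 5, so positions shared in that group rest on this mouse, and mouse 1 was part of 18 and mouse 6 of 7. On the strand of the genes, TAG occurred 6.75, 5.90 and 5.70 times per 1000 nt of member footprints in naïve, mild and severe EAE mice, and AGGT 3.20, 4.26 and 3.94 times. The naïve densities rest on 19 and 9 occurrences.

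Of 66 other complement and Fc receptor genes, 35 had a footprint in at least 1 mouse and 20 in at least 3. Against the 4.53% and 4.54% of all genes above, 3 of the 20 tested were higher in every mild EAE mouse (C4a and Vav1 among them) and 2 were higher in every naïve mouse (Cd46 and Csmd3). Of the 20, 8 had footprints in at least 2 mild EAE mice and in no naïve mouse, against 8.96% of all genes. These 8 likewise entered the comparison through mild EAE mice alone. Among these were the complement receptor 3 chains Itgam and Itgb2, the inhibitory receptor Fcgr2b, and the signalling genes Lyn, Vav1, Inpp5d and Tyrobp, which act downstream of Fc and related receptors. Tyrobp, the adaptor of microglial receptors, was found in mild EAE mice 3 and 7 (44 and 141 nt) and in severe EAE mice 1, 5 and 6 (26, 71 and 29 nt). The membrane regulator Cd46 went the other way, with 131, 125 and 443 nt in the naïve mice and 0 in all EAE mice. Of the regulators expressed in neurons, Csmd1 covered 4288 to 6630 nt in naïve mice and 734, 1675 and 4354 nt in mild EAE, where mouse 7 lay above naïve mouse 3. Lrp1, a scavenger receptor that takes up complement proteins, was footprinted in all 10 mice. Other genes with footprints in at least 3 mice (Clu, Vtn, Csmd2, Csmd3, Susd4, Sez6l, Sez6l2 and Fyn) overlapped between the groups or, for Csmd3, were lower in mild EAE.

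Markers of microglia and macrophages took a larger share of the list in EAE mice than in naïve mice. Those of astrocytes did so in 6 of 7 EAE mice, by their summed share only. The 12 genes of microglia and macrophages (11 of them footprinted) took 14.6, 12.7 and 20.7 nucleotides per 100000 in naïve mice. The mild EAE values were 136, 74.5 and 82.6. Those of severe EAE mice 1, 2, 5 and 6 were 78.1, 957, 114 and 63.2, so that the markers stood above every naïve mouse in 7 of 7 EAE mice. In severe EAE mice 2 and 6 this rests on 1 gene each, and in mouse 1 on 2 genes. Mice 1, 2 and 6 covered 258, 233 and 48 nt in these markers, less than any naïve mouse (261 to 452 nt). Single markers went both ways. Csf1r covered 0 nt in naïve mice and 761, 76 and 1119 nt in mild EAE. Cx3cr1 covered 172 to 309 nt in naïve mice and 0, 120 and 173 nt in mild EAE. P2ry12 covered 151, 0 and 143 nt in naïve mice and 0, 137 and 0 nt in mild EAE. All naïve coverage of these markers lay in Cx3cr1 and P2ry12, and Aif1 was footprinted in no mouse. The 10 astrocyte genes ranged from 75.9 to 206 in naïve mice and from 224 to 336 in mild EAE. In severe EAE mice 1, 2, 5 and 6 they had 511, 0, 276 and 232. In covered nucleotides the sums of naïve and mild EAE mice overlapped (1559 to 4501 nt against 3027 to 6688 nt). Severe EAE mice 1, 2, 5 and 6 covered 1687, 0, 11410 and 176 nt. Of the 10 astrocyte genes, 0 was above the naïve mice in every mild EAE mouse. Single astrocyte genes went both ways. Gfap, the astrocyte intermediate filament, covered 0, 244 and 625 nt in naïve mice and 0 in all mild EAE mice. In severe EAE mice 1 and 5 it covered 155 and 391 nt. Aldh1l1 was at 0 in all naïve mice and covered 303, 0 and 283 nt in mild EAE mice 3, 4 and 7. Glul covered 0, 146 and 383 nt in naïve mice and 1237, 324 and 458 nt in mild EAE mice. As shares, the 10 neuronal genes ranged from 194 to 374 in naïve mice and from 193 to 320 in mild EAE mice. The 10 oligodendrocyte genes had 113 to 356 and 241 to 256, and the 5 endothelial genes 1.71 to 161 and 0 to 45.9. All 8 T cell genes and all 6 neutrophil genes were at 0 in every mouse, and 1 of 6 B cell genes had any footprint. The part of cell composition in the member values was not tested.

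Over the 10 mice, the genes whose log2(covered nt + 1) followed the mean of the 9 members most closely, among 9187 genes, were Yeats2, Gm13136, Gm13140, Sumo2 and Dusp19, with Pearson r from 0.921 to 0.927. These are a description, and the mice share their differences in list length. Each was at 0 in naïve mice and in severe EAE mice 1, 2 and 6. Yeats2 and Sumo2 had the same values in mild EAE mice 3, 4 and 7 (144, 130 and 133 nt). Of the 6 Yeats2 footprints, 2 were identical in sequence to footprints of another of the 5 genes. So were 1 of 9 Sumo2 and 1 of 6 Dusp19 footprints. Gm13136 and Gm13140 are annotated as processed pseudogenes, so the 5 are not all separate protein-coding genes.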

How the data were processed

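CLIPseq of hnRNP A1 was carried out on spinal cords of 10 mice. The authors trimmed reads (bcl2fastq 2.19.0.316, fastp), assembled each library into contigs with rnaSPAdes, placed the contigs on GRCm38 by spliced alignment (minimap2 2.17), removed sites seen in the matched input or pooled IgG data with bedtools and merged what remained. The deposited lists hold chromosome, start and end without count, score or strand, so a gene without footprint is one where none was retained. Of 136207 footprints 135639 lay on GRCm38 chromosomes and 0 beyond an end. Inputs and IgG pools (12 samples) were not analysed here, and the labels and the methods name different antibody clones.

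Covered nucleotides per mouse were counted over GENCODE M21 spans with Python 3.11.15 and numpy 2.4.6. Differences of group means were tested with exact two-sided permutations for all genes footprinted in at least 2 of the mice compared, with Benjamini-Hochberg adjustment. The procedures were tested on simulated data. Classes gave coding priority over UTR and intron, with the stop codon counted as 3′ UTR, and codons were numbered on the APPRIS principal transcript, whose sequence matched the genome for 9 of 9 genes. Sequences were read from the GRCm38 RefSeq assembly with pysam 0.24.0. Named genes were the 9 members, other listed complement and Fc receptor genes with footprints in at least 3 mice, and the 5 genes most like the members. Alternatives were footprint length, merging, wider spans, exons only, shares, the log scale, leaving out mice, and, chosen after seeing the data, leaving out C4b footprints also found in C4a. The members and lists were chosen with earlier results of these data known. Values of some listed genes are not reported here.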

Additional observations from a re-analysis of the deposited data

Results flagged for a closer look

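In severe EAE, mouse 5 stood apart from the other 3 mice of its group in 5 of the 9 genes. The gap from its covered nucleotides to the next mouse, as a fraction of the range of the group, was 0.950 for C1qa, 0.948 for C3, and 1.000 for C3ar1, for Fcer1g and for Serping1, where it alone had footprints. The same fraction for the nucleotides covered by the whole lists was 0.926, mouse 5 again being the highest. Where values are continuous, chance marks about 1 in 20 groups of this size. That rate does not apply to the 3 genes at 1.000, whose fraction follows from 1 mouse having footprints and the others none. It cannot be applied plainly to C1qa and C3 either, since severe EAE mice 1 and 2 were at 0 for C1qa and mouse 2 for C3. The genes also share each mouse's list length. The study's authors describe severe EAE mouse 5 as an outlier of its group, whose binding resembled that of naïve and mild EAE animals. They report that it had been in remission shortly before the end of the experiment.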

How the results depend on the processing

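No comparison gave a gene with an adjusted p under 0.05 under any alternative. Of 426 values for single genes, 419 kept their direction or stayed at 0 and 7 reversed, all in severe EAE against naïve mice. On the log2(covered nt + 1) scale C3 and C4b became -1.48 and -1.55. Leaving out 1 mouse at a time gave -6.33 to 140 nt for C1qb, -165 to 899 nt for C3 and -104 to 1258 nt for C4b, each lowest without severe EAE mouse 5. A replicate block on the numbers shared by naïve and severe EAE mice (1 and 2, which are different animals) gave -65.5 nt for C1qb and -194 nt for C3; these numbers name mice only and pair nothing, and 2 pairs allow no check of pairing. The number of members with footprints in at least 2 severe EAE mice was 2 to 6 with 1 mouse left out, lowest without mouse 5, and 0 without the mice whose lists hold fewer than 5000 footprints, which leaves 1 mouse. The exonic share in mild EAE was 92.7% with 1000 nt added on both sides of each gene. Stretches shared by at least 3 mice numbered 0 in naïve, 24 in mild and 1 in severe EAE. Those shared by at least 2 mice numbered 6, 60 and 24. With 1 mouse left out, the latter were 0 to 4, 25 to 47 and 1 to 24, since fewer mice can share fewer stretches. The count of 5 members above all naïve mice in mild EAE was 5 or 6 under every alternative run. List length limits severe EAE, where 3 lists hold 209 to 2670 footprints.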
